A study of Drosophila melanogaster with 14 samples.

Results

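Pol II occupancy in enterocytes (ECs) of the adult Drosophila midgut was measured by targeted DamID and is described here from the averaged EC track, fragment by fragment and gene by gene. The description covers every Release 6 gene with at least 1 GATC fragment, which gave 17791 genes, and all 383654 fragments of the track. The EC experiment comprised 4 of the 14 samples of the series, 2 libraries from adult midguts in which a fusion of Dam and Pol II was expressed under the Myo1A driver and 2 in which unfused Dam was expressed under the same driver. All 4 libraries came from DNA of dissected midguts with all their cells, so the driver alone restricts the methylation to ECs. Fly genotypes beyond the driver and the fusion, the age and sex of the flies, the number of guts per library and the Pol II subunit that carries Dam were not given in the sources used here. From these libraries the authors deposited the log2 of Dam-Pol II over Dam as 1 track averaged over the libraries. A second such track comes from 2 Dam-Pol II and 2 Dam libraries titled esg, for the escargot population of intestinal stem cells and enteroblasts. It gives side by side values for some genes. No value therefore has a replicate error, no difference below was tested, and the depth behind a value is unknown.

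ECs are the large absorptive cells that make up most of the midgut epithelium. They secrete digestive enzymes into the lumen, take up the products through an apical brush border, store and export lipid, seal the epithelium with smooth septate junctions and meet ingested toxins and bacteria. They arise from intestinal stem cells (ISCs) through transient enteroblasts (EBs), and enteroendocrine cells (EEs) form the other differentiated type. In targeted DamID the Dam methylase, a bacterial enzyme that methylates adenine in GATC, is carried along DNA by the protein it is fused to. A gene that Pol II transcribes in the driver's cells thus gathers methylated GATC sites along its body, and dividing by free Dam corrects for how open the DNA is. The value reports polymerase on the gene and not the amount of its mRNA.

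The track covered 137.5 Mb in fragments with a median length of 197 bp. Fragment values ran from -2.34 to 4.84 on the log2 scale, with a mean of 0.17 and an SD over fragments of 0.65. Of the fragments 45.5% lay within 0.05 of 0, and 18.1% were listed at exactly 0. Fragments at or above 1, that is at least 2-fold more methylation with Dam-Pol II than with Dam alone, made up 10.05%. Within genes 12.5% of the fragments reached this level, against 2.59% of the 94411 fragments outside genes. On chromosome Y 97.4% of the 9944 fragments were listed at exactly 0, so Y genes have no usable value.

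Occupancy of a gene was taken as the length-weighted mean over the fragments that overlap it, each counted by the bases it shares with the gene. The median gene stood at 0.01 and the upper quartile began at 0.72. A gene was called when its mean was at or above 1, and 3361 genes (18.9%) were called. At or above 2 there were 809 genes (4.55%), and below 0 there were 8225 (46.2%). These shares are the background for the gene classes below. The threshold cuts through a continuous distribution, with 367 genes between 0.9 and 1 and 353 between 1 and 1.1. The lower tail was short, with 270 genes below -0.5 and 14 below -1.

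**Figure D1:**
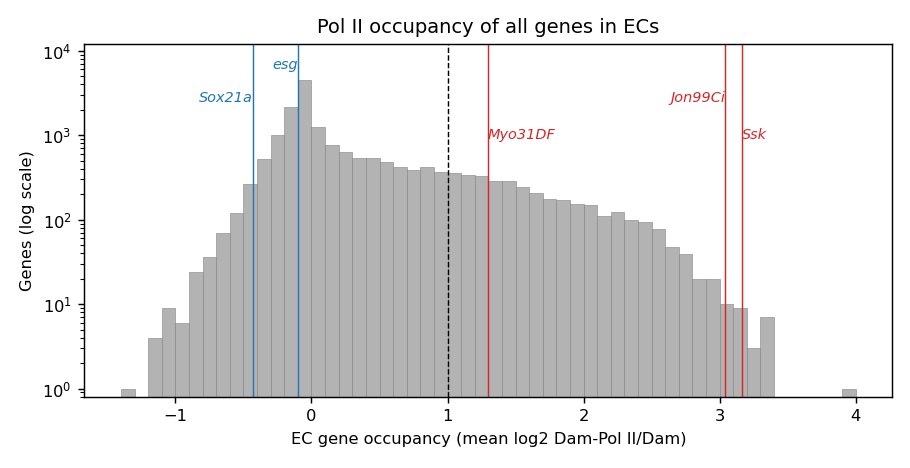
Number of genes (log axis) by EC occupancy, the length-weighted mean log2 of Dam-Pol II over Dam, in bins of 0.1. The dashed line is the call threshold of 1, red lines mark the EC markers Myo31DF (1.30), Jon99Ci (3.04) and Ssk (3.17), and blue lines mark the ISC/EB genes Sox21a (-0.43) and esg (-0.10). The peak lies at 0, where 413 genes have every fragment listed at exactly 0, and the long right shoulder holds the 3361 called genes.

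All 4 markers of ECs were called. Ssk, which encodes a membrane protein of the smooth septate junction, had the highest mean of the 4 at 3.17, with 5 fragments between 2.65 and 3.89. Jon99Ci, a digestive serine protease gene of the Jonah family, had a mean of 3.04 over 8 fragments between 2.64 and 3.53. The trypsin gene kappaTry also stood at 3.04, with 4 fragments between 2.67 and 3.32. In these short genes every fragment was high, so the mean does not rest on a single stretch. Myo31DF, the brush border myosin gene from which the Myo1A driver takes its name, had a lower mean of 1.30. Its 50 fragments ranged from 0.01 to 2.60, 22 of them at or above 1, with a median of 0.83. In coordinate order the first 19 fragments of Myo31DF were below 1 and fragments 20 to 31 were all above it, so its mean is that of a gene with high and low stretches.

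None of the 16 ISC/EB markers was called, and 14 of them lay below 0. The TF genes Sox21a and esg had -0.43 and -0.10, the Notch ligand gene Delta had -0.15, and the highest was klu at 0.15. The median of the list was -0.16. Among lists for other cells of the gut sample, none of 15 EE genes, 16 muscle genes, 7 tracheal genes and 10 germline genes was called. The hormone gene Dh31 had the highest EE value at 0.58, and as an unweighted mean over its 22 fragments it reached 1.1. A run of 8 fragments at or above 1, with a mean of 2.40, touches both Dh31 and the protease gene Bace. By contrast pros, the TF gene that defines EEs, stood at -0.06, and the muscle myosin gene Mhc stood at -0.00. Of 9 hemocyte genes only crq, a CD36-family scavenger receptor gene, was called (1.25), and the hemocyte-defining Hml had -0.16. Of 16 neuronal genes only the synaptobrevin gene Syb was called (1.22), while the neuronal paralog nSyb had -0.14 and elav 0.06. Of 31 cell cycle and replication genes, 4 were called: Cdk1 (2.14), Cdk4 (1.74), the ribonucleotide reductase gene RnrS (1.52) and the mitotic kinase gene aurB (1.24). All 8 fragments of Cdk1 were between 1.77 and 2.32, in a run of 15 fragments at or above 1 that also touches CG5096, mRpS7 and da. The run at aurB also touches Stam. The other 27 cell cycle and replication genes included the S-phase and mitotic cyclin genes CycE (0.07), CycA (-0.14) and CycB3 (-0.23) and the mitotic phosphatase gene stg (-0.04). Across these 8 lists 6 of 120 members were called, against the 18.9% of all genes.

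Of the lists of digestive enzymes, trypsins, Jonah proteases, maltases and amylases, and lysozymes had medians above 1, and trypsin genes had the highest median of any list after the EC markers. Of 11 trypsin genes 9 were called, none was below 0, and the median was 2.16. After kappaTry the highest were thetaTry (2.63) and etaTry (2.40). All 11 sit in 1 cluster on chromosome 2R from 11336840 to 11357537 (Release 6), where 10 of 14 genes were called. The left end of this cluster, from lambdaTry to betaTry, was a run of 8 neighboring called genes. The other 4 genes, gammaTry, CG30031, CG30025 and deltaTry, had means between 0 and 0.39. Of their 41 fragments 34 were listed at exactly 0, against 0 of 66 fragments in the other genes of the cluster. These 4 genes are near-identical copies, to which short reads often cannot be placed uniquely. Whether this set their values was not tested, and their low means cannot be read as absence of Pol II.

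Of 16 Jonah protease genes 10 were called, with a median of 1.17. Jon99Ci was followed by Jon65Aiii (2.91), Jon65Aii (2.78) and Jon74E (2.68). At the other end Jon66Ci had 0.19 and Jon66Cii 0.03, so members of 1 family ran from near 0 to above 3. In the 99C group Jon99Cii (1.20) and Jon99Ciii (1.11) each had 2 fragments listed at exactly 0, and each also held fragments above 2. Of 14 maltase and amylase genes, whose enzymes split starch and disaccharides, 10 were called with a median of 1.52. Mal-A1 was highest at 2.45, followed by tobi (2.35), an alpha-glucosidase gene, and Mal-A8 (2.19). All 8 genes Mal-A1 to Mal-A8 were called and lie side by side on chromosome 2R, and together with Cyp4e1 and Cyp4e2 they formed a block of 10 called genes over 29402 bp. The next gene on that side, mtt, had -0.07, and the paralogs elsewhere, Mal-B1 and Mal-B2, had -0.25 and 0.08. The amylase genes Amy-p and Amy-d had 1.49 and -0.04, and whether reads were placed uniquely between these 2 genes was not tested.

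Lysozyme genes, whose midgut enzymes digest bacterial walls, had a median of 1.78, and 5 of 7 were called. LysC (2.81), which is annotated as a pseudogene and counted among the 5, and LysE (2.78) were highest and LysX (0.09) lowest. These genes have between 2 and 6 fragments each and resemble one another in sequence, so their separate values are less certain. Of 7 aspartic and cysteine protease genes, whose enzymes act at acid pH, 3 were called: Bace (2.68), CtsL1 (1.74) and CtsB (1.48). Of 6 lysosomal alpha-mannosidase genes LManI (1.82) and LManII (1.39) were called, and the others lay between 0.59 and 0.97. Of 19 lipase genes 7 were called, with a median of 0.54. Among these, CG8093 had 2.50, CG17192 had 2.02, the intestinal lipase gene mag had 1.82 and bmm, the gene of the triglyceride lipase of lipid droplets, had 1.68. Hsl, the hormone-sensitive lipase gene, had -0.15. By the median over fragments 4 lipase genes were called, and mag had 0.10.

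**Figure D2:**
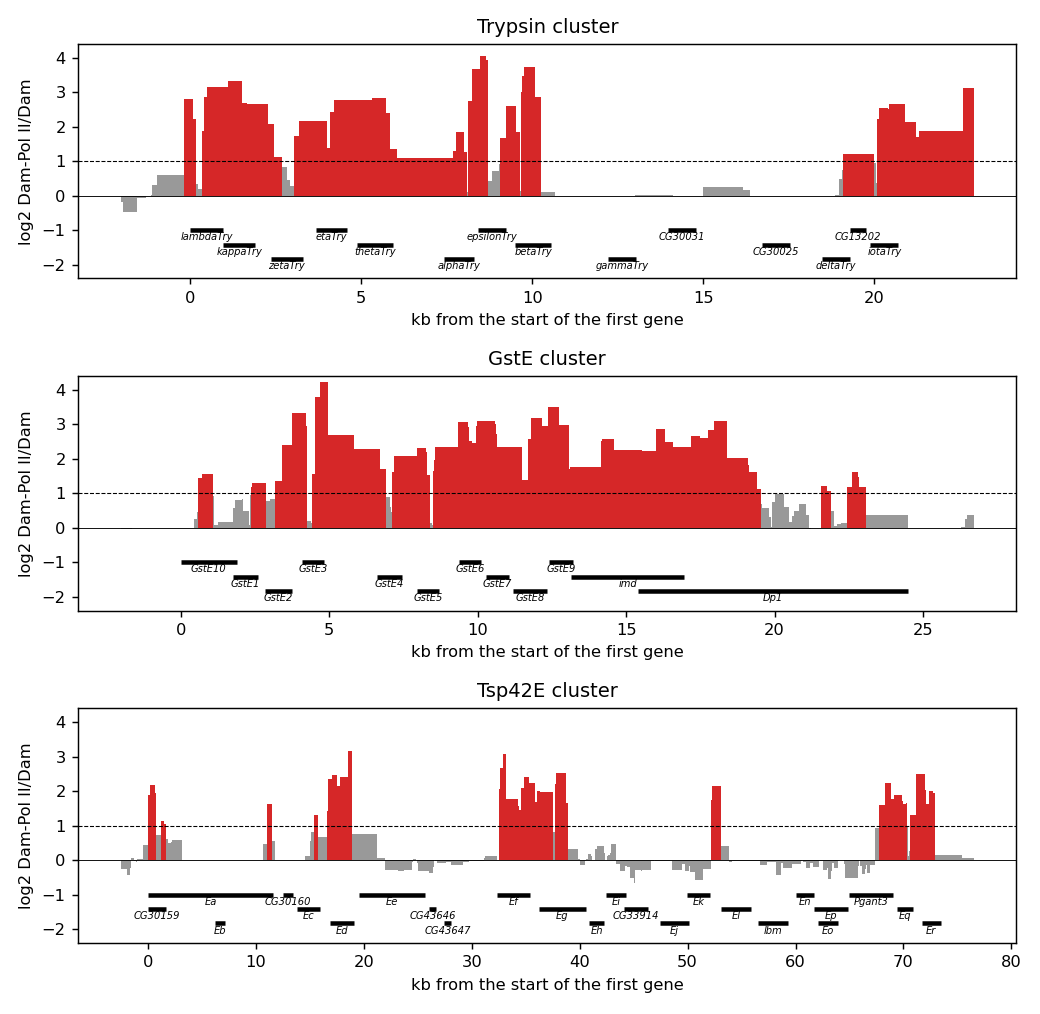
EC track over the trypsin cluster, the GstE cluster and the Tsp42E tetraspanin cluster on chromosome 2R, with distance in kb from the start of the first gene on the horizontal axis and log2 of Dam-Pol II over Dam for each GATC fragment on the vertical axis. Red fragments are at or above 1 (dashed line), grey ones are below, black bars are genes, and in the lower panel names are given without the prefix Tsp42. The trypsin cluster has a gap near 0 between betaTry and deltaTry, the GstE cluster is red over most of its length, and the Tsp42E cluster shows separate red stretches.

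Genes that handle absorbed lipid, metals and solutes were called in part. Of 20 genes of lipid synthesis and storage 14 were called, with a median of 1.22. fabp, whose product binds fatty acids, had 2.80, the acyltransferase gene Agpat3 had 2.56, the desaturase gene Desat1 had 2.48 and the lipid droplet gene Lsd-2 had 2.21. The annotation gives fabp and sea the same coordinates, so their values cannot be separated. The fatty acid synthase genes differed, with 1.08 at FASN1, 0.55 at FASN2 and -0.07 at FASN3. Of 8 genes of lipoproteins and their receptors only LpR1 reached the threshold (1.0), and it lost its call with fragments wholly inside the gene or after subtracting the median of all genes (0.99 each). In the same list apolpp, which encodes the main lipoprotein of the hemolymph, had -0.17. Of 10 Npc genes, whose products carry sterols, 4 were called: Npc2e (2.61), Npc2f (1.81), Npc2d (1.53) and Npc1b (1.5). Npc1a, the paralog of Npc1b, had -0.15, and Npc2h had -0.76.

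Genes of copper, iron and zinc handling had a median of 1.20, and 16 of 28 were called. Both subunits of secreted ferritin were high, Fer2LCH at 2.54 and Fer1HCH at 2.36. The metallothionein genes MtnC (2.49) and MtnA (2.06) and the copper importer gene Ctr1B (2.46) were called, as was MTF-1 (1.47), which encodes the metal-responsive TF of this system. Ctr1A had 0.94 and Ctr1C -0.14. MtnB had -0.01 from 1 fragment.

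Transporter genes split between called and flat members. Of 12 sugar transporter genes 3 were called, sut1 (1.84), SLC5A11 (1.71) and pippin (1.51, but 0.99 by the unweighted mean and 0.80 by the median over fragments), whereas Glut1 had -0.08 and sut4 -0.22, and the median was 0.02. Of 21 amino acid transporter genes 6 were called with a median of 0.49, led by CG8785 (1.97), the arginine transporter gene slif (1.83) and acs (1.56). Among 21 carriers of peptides and other solutes 9 were called with a median of 0.55. MFS1 (2.44), MFS14 (2.39) and MFS12 (2.23), of the major facilitator family, were the highest, and the oligopeptide transporter gene yin had 1.70 and the citrate transporter gene Indy 1.17. Oatp26F had -0.43.

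Of 17 brush border genes 6 were called, with a median of 0.65. The myosin gene Myo61F had 2.11, Act5C, an actin gene, had 2.08, and the profilin gene chic had 2.02. The cadherin genes Cad89D, Cad99C and Cad88C had -0.07, -0.08 and -0.22. In the smooth septate junction, which in arthropods seals endodermal epithelia, Ssk (3.17), Tsp2A (2.29) and hoka (1.03) were called, and mesh had 0.56 over 42 fragments. Other junction genes were mostly flat, with 1 of 21 called, the sodium pump subunit gene nrv1 (1.02), and a median of 0.15. By the unweighted mean nrv1 had 0.98 and by the median over fragments 0.59, which left 0 called, whereas fragments wholly inside the gene gave 3. Atpalpha, the catalytic subunit gene of that pump, stood just below the threshold at 0.99.

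Of 33 genes for subunits of the vacuolar proton pump, which acidifies lysosomes and the acid region of the midgut, 15 were called and 9 lay below 0, with a median of 0.85. Vha100-5 (2.55), Vha26 (2.47) and Vha14-1 (2.39) were highest. Some genes of the same subunit differed, with examples chosen after their values were seen: Vha100-5 and Vha100-2 (1.43) contrasted with Vha100-4 (0.17) and Vha100-3 (-0.11), Vha68-2 (1.93) with Vha68-1 (0.04), and Vha36-1 (1.83) with Vha36-3 (-0.18). Tetraspanin genes showed a like mixture. Of 34 genes 10 were called and 15 were below 0, from Tsp29Fb (2.91) and Tsp42Ed (2.36) to Tsp33B (-0.77). In the Tsp42E cluster, 73438 bp on chromosome 2R, 6 of 27 genes were called. They lay in stretches around Tsp42Ed, Tsp42Ef and Tsp42Eg, and Tsp42Eq and Tsp42Er, and at the left end in CG30159 (1.42), which overlaps Tsp42Ea. Of the 60 fragments of Tsp42Ea, at the left end of the cluster, 43 were listed at exactly 0, as was every fragment of Tsp42Eb and CG30160. The fragment lengths from 3.162 kb into the cluster repeat almost exactly, in the same order, from 9.451 kb. Whether repeated sequence set these values was not tested, and they cannot be read as absence of Pol II.

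Detoxification genes formed some of the longest stretches of high Pol II. Of 35 glutathione transferase genes 24 were called with a median of 1.33, including GstE9 (3.02), GstE6 (2.86) and GstT4 (2.79). The GstE cluster with the adjoining imd and Dp1 on chromosome 2R covers 24487 bp, and 12 of its 14 genes were called. From GstE2 to Dp1 the 10 protein-coding genes in a row were called, with a median of 2.40. Of 35 UDP-glucuronosyltransferase genes 17 were called, led by Ugt303B3 (2.39) and Ugt303B1 (2.32), and 10 by the median over fragments. Of 85 cytochrome P450 genes 26 were called and 25 lay below 0, with a median of 0.51. The highest were Cyp6d5 (2.50), Cyp12a4 (2.30) and Cyp4e1 (2.21), and the lowest Cyp303a1 (-0.44) and Cyp6t3 (-0.52). Of 17 genes of redox control 13 were called with a median of 1.35: the glutathione synthesis gene Gclm had 2.89, the thioredoxin gene Trx2 had 2.64, the thioredoxin reductase gene Trxr1 had 2.13, Keap1 had 1.84 and cnc, the Nrf2 homolog, had 1.35. The oxidase genes Duox and Nox, whose products generate reactive oxygen, had -0.08 and -0.19. Of 27 heat shock genes 5 were called (18.5%), near the 18.9% of all genes. They were the cognate genes Hsc70-3 (1.87), Hsc70-5 (1.85) and Hsc70-4 (1.84) together with Hsp67Bc (1.95) and Hsp83 (1.58). In this list 27.8% of the fragments were listed at exactly 0, and the Hsp70 copies cannot be told apart.

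In the IMD pathway, which answers to bacterial peptidoglycan, 7 of 17 genes were called with a median of 0.87. The adaptor gene imd had 2.24, the kinase partner gene Tab2 2.23, Fadd 1.59 and the negative regulator gene pirk 1.28. The NF-kappaB factor gene Rel had 0.93. Among 13 genes of peptidoglycan recognition proteins 4 were called: PGRP-LE (1.79), an intracellular sensor, PGRP-LB (1.04), an amidase that degrades peptidoglycan, PGRP-LF (1.04) and PGRP-LC (1.03), the membrane receptor of the pathway. By the median over fragments 2 were called. Of 21 antimicrobial peptide genes, the outputs of the immune pathways, Drsl3 (1.59) and Drsl6 (1.51) were called, from 2 fragments and 1. The median was -0.02, and DptA (-0.28), Drs (-0.48) and AttA (-0.65) lay below 0.

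Of 24 genes of GATA factors and nuclear receptors 5 were called (20.8%), near the 18.9% of all genes, and the median was 0.13. GATAe, a GATA factor of the endoderm, had the highest value (2.10), followed by the nuclear receptor genes ERR (1.74), Hr96 (1.72) and Hnf4 (1.45) and by GATAd (1.02). Among the other GATA genes, grn and pnr had -0.10 and -0.14. ERR and Hnf4 regulate carbohydrate and lipid metabolism, and Hr96 responds to xenobiotics and dietary lipid. The ISC/EB track had 2.52 at Hnf4. Among 22 genes of regional identity 3 were called (13.6%), vnd (2.0), odd (1.99) and exex (1.69), and cad, which marks the posterior midgut, had 0.96. ECs of all midgut regions entered the same libraries. At vnd 48 of 62 fragments were at or above 1, and the gene overlaps the longer gene spdi (1.05). Hox genes were flat, with 0 of 8 called and lab, expressed in the acid region, the highest at 0.08.

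Among genes used in every cell, 4 of 5 lists had more called members than the 18.9% of all genes. Of 87 cytosolic ribosomal protein genes 70 were called with a median of 1.49, led by RpLP2 (2.86), RpL15 (2.61) and RpS20 (2.50). The 2 members below 0, RpL10Aa (-0.08) and RpS10a (-0.12), each have a paralog that was higher, RpL10Ab (2.10) and RpS10b (0.59). Of 73 mitochondrial ribosomal protein genes 37 were called with a median of 1.0, and mRpS10 reached 3.05. Of 88 respiratory chain genes 50 were called with a median of 1.19, including COX5B (2.63) and UQCR-11L (2.99). The run of fragments at or above 1 at UQCR-11L also touches Acsl, which has such runs on both sides of it. The value of UQCR-11L therefore belongs to the locus. In the respiratory chain list the 22 genes whose symbol ends in L, L1 or L2, for a paralog of a main subunit gene, had a median of -0.05. Of these 4 were called, UQCR-11L among them, and 15 were below 0. The other 66 had a median of 1.35 with none below 0. In the proteasome list no paralog was called. Of 32 main subunit genes 16 were called and none lay below 0, with Rpn7 (2.19) highest (10 called by the unweighted mean or by the median), whereas none of the 16 paralogs with R or T in the suffix was called and 13 lay below 0. In Drosophila these proteasome paralogs are known mainly from the testis. Of the 12 genes of Pol II subunits Polr2G (1.93) and Polr2A (1.52) were called, and the others lay between -0.25 (Polr2B) and 0.87 (Polr2C). Polr2A, the gene of the largest subunit, had 30 of 55 fragments at or above 1.

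Gene families for other tissues give a floor measured in the same way. Of 60 odorant receptor genes 1 was called and 54 lay below 0. The same held for 1 and 53 of 60 gustatory receptor genes, 0 and 59 of 66 ionotropic receptor genes, and 1 and 47 of 51 odorant-binding protein genes. The medians of the 4 families were between -0.14 and -0.08. The called genes were Or45b (1.31, 5 fragments), Gr39b (1.56, 6 fragments) and Obp93a (1.5, 3 fragments), which lies beside the called gene CG5793. The runs of fragments at or above 1 that touch Or45b and Gr39b also touch the neighboring genes Alp6 and CG8665, respectively. The medians of these families lay slightly under that of all genes, 0.01.

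**Figure D3:**
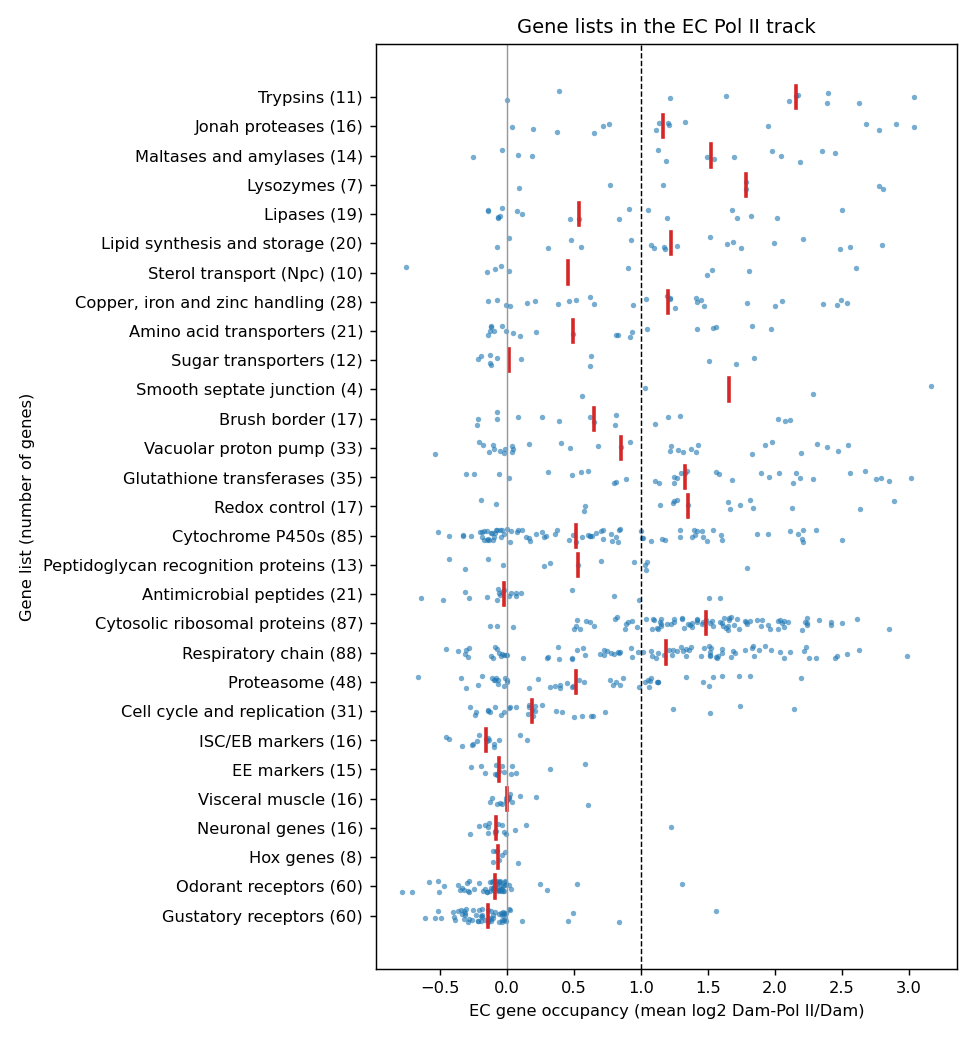
EC occupancy of every member of 29 gene lists, with 1 blue point per gene and the red bar at the list median. The horizontal axis is the length-weighted mean log2 of Dam-Pol II over Dam, the solid line is 0 and the dashed line is the call threshold of 1. Trypsins (median 2.16), lysozymes (1.78) and smooth septate junction genes (1.66) stand to the right, and ISC/EB markers (-0.16), Hox genes (-0.07) and receptor families stand at or left of 0.

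The 20 genes with the highest occupancy among those with at least 5 fragments lay between 2.87 and 3.33, and 18 of them encode proteins. Of the 12429 genes with so many fragments 19.6% were called. They were short, between 761 and 3435 bp. Besides Ssk, Jon99Ci and Jon65Aiii, they included CG10562 (3.33) and CG31288 (3.05), genes of the ecdysteroid kinase-like family, and Argl (3.32), the argininosuccinate lyase gene, which adjoins Tsp29Fb (2.91) on chromosome 2L. CG15255 (3.20) encodes an astacin-type metalloprotease, CG9673 (3.12) and CG4653 (3.07) are neighboring serine protease genes on chromosome X, and Gclm (2.89) was described above. The antisense gene asRNA:CR46033 (3.33) lies within Galphaf (2.71), and DamID does not tell strands apart, so its value belongs to the locus. In the ISC/EB track the 20 genes ranged from -0.39 to 3.45 with a median of 1.54, and 11 of them were at or above 1 there, such as CG44250 (3.45) and Gclm (2.65). The comparison of the populations has no replicate values and was not tested.

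The 10 lowest genes with at least 5 fragments lay between -0.83 and -1.08. The cuticle protein gene Cpr64Aa was lowest (-1.08, 7 fragments from -1.47 to -0.11), followed by CG13843 (-1.04) and CG5070 (-1.0). Dnali1 (-0.91), which encodes an axonemal dynein chain, was also among them. Such genes carried more methylation with Dam alone than with Dam-Pol II. CG12923 (-0.87) and CG9777 (-0.85) had 1.19 and 1.37 in the ISC/EB track.

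Several small noncoding genes had high values from few fragments. The highest mean of any gene was that of mir-279 (3.92), from 2 fragments of 3.36 and 4.12, followed by snoRNA:Psi18S-920 (3.36) and tRNA:Leu-AAG-1-1 (3.34), with 1 fragment each. Of 30 genes at or above 3, 19 had fewer than 5 fragments. Of 255 miRNA genes 38 were called (14.9%, against 18.9% of all genes), among them mir-956 (2.96), mir-282 (2.84) and mir-8 (2.61). Of 274 snoRNA genes 124 were called with a median of 0.88. By annotated class, 213 of 269 snoRNA genes overlap a protein-coding gene, and 50.7% of these were called, against 28.6% of those that do not. Of 117 that overlap a called protein-coding gene 89 were called, from fragments they share with that gene. Of 503 antisense RNA genes, nearly all of which overlap a protein-coding gene, 164 were called (32.6%), and of 1945 long noncoding RNA genes 180 were called (9.25%). tRNA genes, which are transcribed by Pol III, had 53 of 295 called (18%, near the 18.9% of all genes) and a median of 0.18. Among 115 histone genes only His4r (3.31) and His3.3B (1.35), which lie outside the repeated histone array, were called, and 76.5% of the histone fragments were listed at exactly 0.

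Gene length and occupancy went together in part. Of protein-coding genes up to 500 bp 12.02% were called, against 19.8% of all protein-coding genes, and the share was highest between 1 and 2 kb, where 1012 of 3842 genes (26.3%) were called. Between 10 and 20 kb the share was 14.5%, between 20 and 50 kb it was 3.97% (28 of 705), and above 50 kb it was 0.639% (2 of 313). The genes above 50 kb that were called are tkv (1.07), which encodes a BMP receptor, and Pdp1 (1.06), a TF gene. Of 1044 genes of any class of at least 20 kb 30 were called, and 312 (29.9%) touched a Pol II domain as defined below, against 23.3% of all genes. A longer gene can touch a domain more easily by its length alone. The long gene mtd had a mean of 0.99 with 33257 bp in domains (40.9% of its length), and lola had 0.57 with 13381 bp. Long genes that were called included CG33181 (1.81), Hnf4 (1.45, 69.1% of its length in domains), foxo (1.36) and cnc (1.35).

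**Figure D4:**
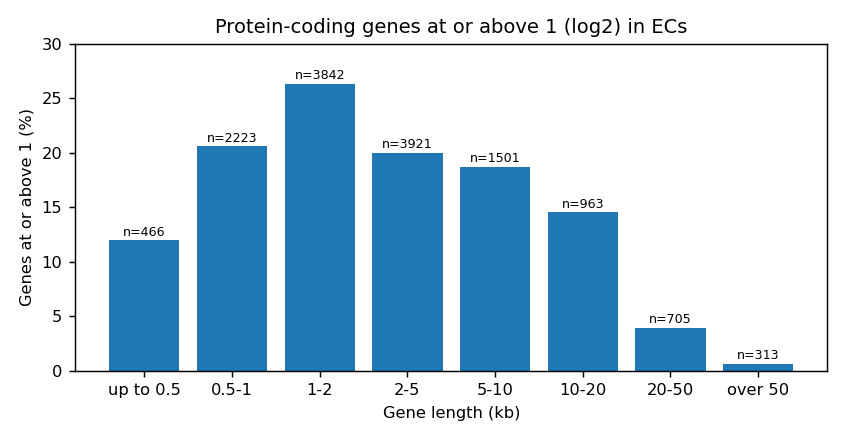
Share of protein-coding genes at or above 1 (log2) in ECs by gene length in kb, with the number of genes in each length class above its bar. The share is 26.3% between 1 and 2 kb and 0.639% above 50 kb.

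Along genes the ratio was not confined to the annotated span. The annotation used here has no strand, so both gene ends were averaged. In the 447 protein-coding genes of at least 1 kb with occupancy at or above 2, the mean was 1.02 at 1900 bp outside the gene, 2.09 at 100 bp outside and 2.41 in the middle. In the 1802 genes between 1 and 2 it was 0.72, 1.36 and 1.39 at the same positions. Genes between 0 and 1 had another shape, with 0.64 at 100 bp outside and 0.27 in the middle, so that their ratio was higher at the ends than inside. Genes below 0 went from 0.07 at 1900 bp outside to -0.19 in the middle. The groups were formed by the same values inside the genes, so the level there follows from the grouping. The rise or fall from the flank to the middle follows from it in part too, since the flanks did not enter the grouping.

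**Figure D5:**
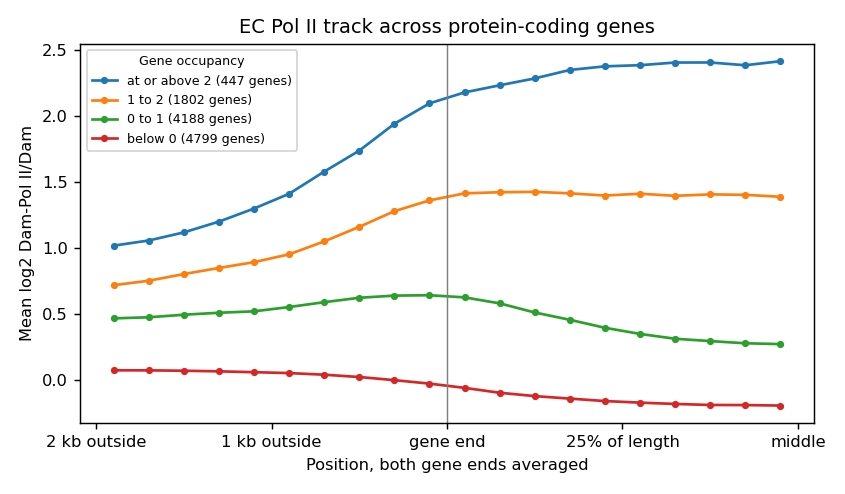
Mean log2 of Dam-Pol II over Dam along protein-coding genes of at least 1 kb in 4 groups of occupancy, from 2 kb outside the gene to its middle, with both gene ends averaged because strand was not used. Genes at or above 2 climb from 1.02 to 2.41, and genes between 0 and 1 have their highest values next to the gene end and 0.27 in the middle. The groups were formed by the values inside the genes, which in part sets these shapes.

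Fragments at or above 1 lay together. Runs of at least 5 such fragments in a row, with no gap over 1000 bp, are called domains here. There were 2906 domains with 7.57 Mb in all (5.50% of the track), and they held 63.9% of the fragments at or above 1. A domain had a median length of 2220 bp and 7 fragments, 207 were at least 5 kb long and 10 at least 10 kb. Only 48 domains touched no gene, 1242 touched 1 gene and 1616 touched at least 2. Of the called genes 2603 (77.4%) touched a domain. Another 1545 genes touched one with a mean below 1, and their median length was 4780 bp, against 1555 bp for called genes.

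The longest domain lay on chromosome 2R from 18429127 to 18442460 (13334 bp, mean 2.0) and touched PIG-O, Ttd14 and slim. The next on 3R from 11804031 to 11816657 touched the chloride channel gene ClC-a and glo with a mean of 1.77. On 2R from 19293846 to 19305238 a domain with a mean of 2.30 touched Tab2 and Acadvl, a gene of fatty acid oxidation. The domain from 18405126 to 18416193 on 2R ran from within GstE5 into Dp1 with a mean of 2.45 and touched 7 genes. The domain on 3R from 12438206 to 12448401 with a mean of 2.39 touched Desat1 and vrs. Others touched Mi-2 and Su(Tpl) on 3L (2.04), drn on 3R (1.64), sbr to Pgls on X (2.43), out on X (2.17) and CycG and Med on 3R (1.77). Of these 10 domains 9 touched more than 1 gene.

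Called genes also lay in rows. There were 64 blocks of at least 5 consecutive called protein-coding genes, with 376 genes, and 8 blocks held at least 8 genes. Besides the GstE block and the Mal-A block, another block of 10 genes ran from Ugt35A1 to CG4820 on chromosome 3R (11170817 to 11217898), with a median of 1.33 and members of unlike function, among them the deadenylase gene cu, SdhC, ZnT86D and RpS25. Neighboring genes share fragments at their borders, so values within a block are not independent of each other.

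Low values formed longer and shallower stretches at a cut-off of 0. Of all fragments 51.1% lay below 0, against 10.05% at or above 1, so the greater length follows in part from the cut-off. Runs of at least 5 fragments below 0 numbered 13080 and took 50.8% of the track. The longest, 63336 bp with a mean of -0.20, lay in mbl on 2R, and a run of 61618 bp with a mean of -0.27 lay in Dys on 3R. Runs with every fragment below -0.5 were short, 272 in number with at most 3489 bp, and this longest one lay over Gcn2 and PNPase with a mean of -1.09. Another lay in Bruce with a mean of -1.42.

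By chromosome arm the share of called genes was 17.4% on 2L, 21.5% on 2R, 18.6% on 3L, 18.9% on 3R and 18.9% on X. On the small, largely heterochromatic chromosome 4 it was 9.65% (11 of 114 genes), the median gene had -0.10 and 67.5% of the genes lay below 0. Its called genes included Mpv17 (2.58), RpS3A (1.62), ATPsynbeta (1.37) and the zinc transporter gene Zip102B (1.03). Domains took 1.81% of chromosome 4 and between 5.22% and 6.47% of the other chromosome arms without Y. No chromosome Y gene was called, with nearly every Y fragment at exactly 0.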

How the data were processed

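Targeted DamID libraries of adult midguts were sequenced by the authors after DpnI digestion, adaptor ligation, DpnII digestion and amplification. The authors deposited the log2 of Dam-Pol II over Dam for each GATC fragment, averaged over the 2 libraries of each kind per population. The aligner, the scaling between libraries and the treatment of fragments without reads were not given in the sources used here, and the depth is unknown. The EC track was used throughout, the ISC/EB track gives side by side values, and the Sox21a files were not used here. Gene coordinates were those of Release 6 in RefSeq, without strand, exons or sequence. Gene means, list counts, runs and profiles were computed in Python 3.11.15 with numpy 2.4.6, pandas 2.3.3 and matplotlib 3.10.9, and were tested on simulated data. A gene was called at a mean of at least 1. No statistical test was run, since no values per library were used. Members and the 55 gene lists were chosen with earlier results of these data known, and 6 listed names had no match. Named genes were the markers, the 20 highest and 10 lowest genes with at least 5 fragments, the 3 highest and 2 lowest members of a list, genes of the 10 longest domains, called members of lists for other cell types and Pol II subunit genes. Genes named beyond this rule were chosen after their values were seen.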

Additional observations from a re-analysis of the deposited data

How the results depend on the processing

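No paired analysis was possible because the deposited tracks are averages without values per library, and for the same reason no library could be left out in turn. The 3361 called genes became 5046 at a threshold of 0.58 and 1761 at 1.5. Other summaries gave between 2435 (of the 12429 genes with at least 5 fragments, 19.6%) and 3391 (of 17378 genes, with fragments at exactly 0 left out). The latter alternative was chosen after seeing the data. The median over fragments gave 2840 of 17791. Over all lists, 988 of 4694 members were called, and 596 of 4694 at a threshold of 1.5. With only fragments wholly inside the gene 632 of 2637 were called, and with at least 5 fragments 470 of 1801. These last 2 counts are lower because fewer members remain, not because a smaller share was called. The 2906 domains became 1729 (3.94 Mb) at a threshold of 1.5 on each fragment and 791 (3.33 Mb) with at least 10 fragments. Allowing 1 lower fragment inside a run gave 2990 domains (9.50 Mb). The thresholds and the limits on fragments act by construction, and the cause of the shift with the median over fragments was not tested. Of 327 named genes 161 were called. The alternatives gave between 138 (of the 286 with a fragment wholly inside the gene) and 162 (of 326, with fragments at exactly 0 left out). With the median over fragments 8 named genes crossed the threshold of 1, among them Myo31DF (0.83), hoka (0.80), nrv1 (0.59) and Dp1 (0.70). Of the 55 list counts 29 moved by over 1.5 times at a threshold of 1.5 and 18 at 0.58, and at least 5 fragments per gene leave few small RNA genes. With genes of at least 2 kb the profile's middle value was 2.42. The orientation of the profile by strand and the count of GATA motif letters in promoters were not run, since strand and promoter sequence were not used here.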

Other observations

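Some blocks of called genes hold members of families that were on none of the gene lists. The genes were chosen after their values were seen and are given as a description. On chromosome 3R from 25291370 to 25303986, 6 consecutive called genes of the ecdysteroid kinase-like family (CG31098, CG31102, CG31097, CG31288, CG13659 and CG31370) had a median of 1.76, and another 6 called genes from 11678386 on the same arm included CG6830, CG6834, CG6908 and CG18765 of this family, with a median of 2.14. The 4 Eglp genes, which encode aquaporin-like channels, formed with CG43209 a block on 2R with a median of 2.47. A block of 5 genes on 2R that holds Muc55B, a mucin gene, together with CG10911 and CG10912 had a median of 2.54. The MFS1 block on 2R held 5 genes with a median of 2.07, and a block of 5 on X ran from CG1532 to Mgstl, a glutathione transferase gene of the microsomal type, with a median of 1.72.

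The genes of the RNA components of RNase P and RNase MRP, which process tRNA and rRNA, were called, with 2.87 and 2.77. Whether they share their fragments with a protein-coding gene was not tested, so their values belong to the locus. Of 308 pseudogenes 19 were called (6.17%), and none of 98 rRNA genes was called.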
